A study of Mus musculus with 15 samples.

Results

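The genes described here handle and read vitamin A (retinol) inside the cell. They are *Stra6*, *Crabp1*, *Crabp2*, *Rdh10*, *Dhrs3*, *Cyp26b1*, *Rara*, *Rarb* and *Rarg*, taken by symbol as 9 of the 35880 gene symbols measured. They were picked as a group with earlier results of these data in view, so their levels are a description and carry no p-values. RNA was sequenced from LL2, the Lewis lung carcinoma line of the mouse (LL2/Luc2 in the labels), in 5 lines with 3 biologic replicates each. LL2 WT is the unedited parental line. *KEAP1* KO #1, #2 and #3 and *NRF2* KO were made in it with plasmids that carried Cas9, GFP and a guide RNA, and each of the 4 knockout lines is 1 clone grown from a single sorted cell. What the edit does and what came with the founding cell of a clone cannot be told apart within 1 clone. All lines grew in DMEM with fetal bovine serum, and the labels list no added retinoid. KEAP1 is the adaptor that hands the transcription factor NRF2 (gene *Nfe2l2*) over for degradation, and the study asked how loss of either changes the cancer cell.

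Retinol circulates bound to RBP4 and can enter cells through STRA6. Inside the cell it is oxidised reversibly to retinal, by RDH10 among others, and DHRS3 reduces retinal back to retinol. Retinal dehydrogenases of the ALDH1A group then make retinoic acid irreversibly. CRABP1 and CRABP2 bind retinoic acid in the cytosol, CRABP2 being known for passing it to nuclear receptors, and CYP26 hydroxylases inactivate it. The receptors RARα, RARβ and RARγ bind DNA together with RXR partners. *Rarb*, *Stra6*, *Dhrs3* and *Cyp26* genes are themselves textbook retinoic acid targets.

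Values are read counts scaled to a common library size (CPM). How many reads each sample had is unknown. A level of 0.1 CPM, about 3 reads at the study's average depth, was set as the floor, and where every sample of a line was no higher than this, the fold is stated as "at least". Differences are log2 fold changes of CPM + 0.1 with their standard error from limma, and "called" stands for a Benjamini-Hochberg adjusted p under 0.05 plus a change of more than 1 on the log2 scale. The replicates are named biologic, and whether they were grown on separate days or from separate passages is not given in the sources used here, so the p-values measure only the spread between these samples.

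The edited genes were read before the retinoid genes. *Keap1* averaged 23.0 ± 1.03 CPM (SD, n = 3) in LL2 WT, 11.8 ± 0.889 in *KEAP1* KO #1, 5.53 ± 1.57 in #2, 5.58 ± 1.59 in #3 and 22.7 ± 1.78 in *NRF2* KO. *Nfe2l2* averaged 186 ± 19.6 CPM in LL2 WT and 119 ± 24.0 in *NRF2* KO, but also 96.4 to 123 in the *KEAP1* KO clones, so its level does not single out *NRF2* KO. The NRF2 target *Nqo1* lay at 26.1 to 36.5 CPM in LL2 WT, at 253 to 545 in the *KEAP1* KO samples and at 8.55 to 11.0 in *NRF2* KO. Among the markers of cell types, the epithelial genes *Epcam* and *Cdh1* and the alveolar gene *Nkx2-1* were under the floor in all 15 samples, although the source is a lung carcinoma line, while *Krt8*, *Krt18* and the mesenchymal gene *Vim* were at 65.1 CPM or more in all of them. The leukocyte gene *Ptprc* stayed at or under 0.192 CPM, and *Lrat*, which marks retinoid-storing stellate cells, stayed under the floor. Summed CPM ran from 299 to 667 for the epithelial markers, 2698 to 7574 for the mesenchymal, 2.47 to 7.48 for the endothelial and 0.566 to 2.42 for the stellate ones, and reached at most 1.18 for the alveolar and 2.70 for the leukocyte ones. The mesenchymal sum was 6098 to 6875 CPM in LL2 WT, 2698 to 5300 in the *KEAP1* KO samples and 7031 to 7574 in *NRF2* KO, but its 4 genes differed in direction. In LL2 WT and *KEAP1* KO #1, #2 and #3, *Vim* averaged 4289, 1853, 1681 and 1755 CPM and *Fn1* 236, 92.1, 19.9 and 22.9, whereas *S100a4* averaged 1897, 1321, 2629 and 3080 and *Cdh2* 6.73, 10.8, 0.351 and 11.7. The part of these shifts in the retinoid genes was not tested.

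**Figure D1:**
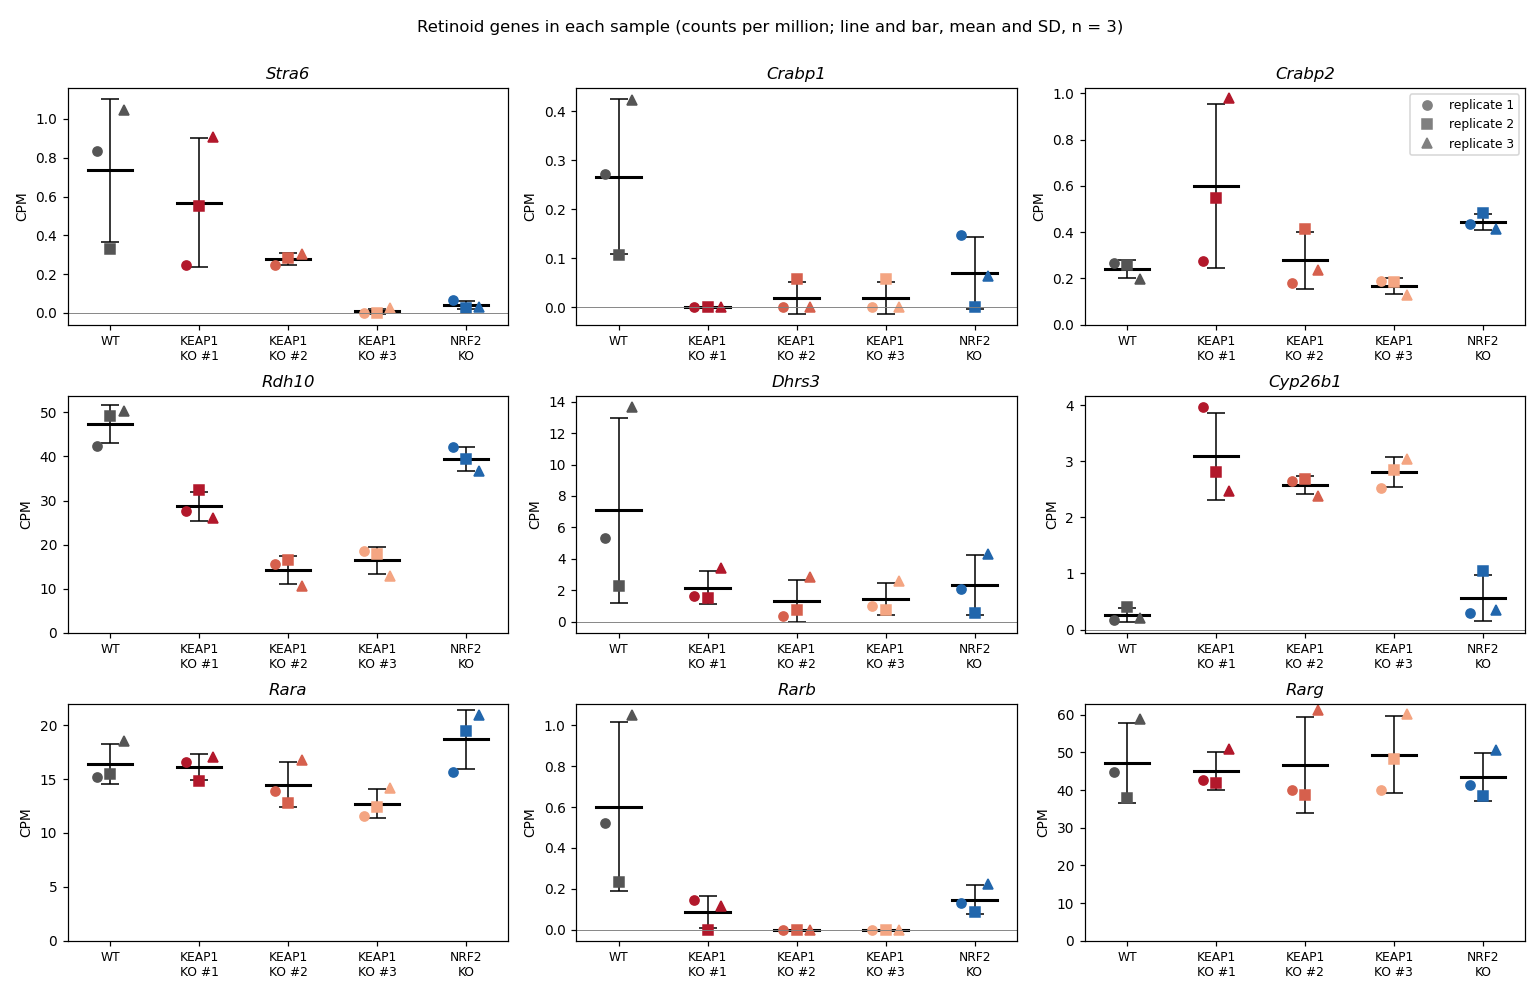
CPM of each retinoid gene in every sample, 1 panel per gene with its own linear axis; symbols give the replicate number, the horizontal line the mean and the bar the SD of 3 samples. *Cyp26b1* is higher in the 9 *KEAP1* KO samples (2.39 to 3.96 CPM) than in LL2 WT (0.168 to 0.408 CPM), *Rdh10* is lower in them, and *Rarg* overlaps across the 5 lines.

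Compared per kilobase of transcript, the receptor gene *Rarg* had the highest level of the group in LL2 WT (33.1 CPM per kb), followed by *Rdh10* (13.2 CPM per kb), *Rara* (5.61 CPM per kb) and *Dhrs3* (5.07 CPM per kb). The length was the mean of the annotated coding transcripts of each gene, whichever of them are expressed, so close levels may change order. *Stra6* (0.554 CPM per kb), *Rarb* (0.347 CPM per kb), *Crabp1* (0.332 CPM per kb), *Crabp2* (0.257 CPM per kb) and *Cyp26b1* (0.0715 CPM per kb) were far lower. In the *KEAP1* KO clones *Cyp26b1* was at 0.697 to 0.836 CPM per kb, above *Stra6*, *Rarb*, *Crabp1* and *Crabp2* in the same clones.

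*Cyp26b1*, the hydroxylase that clears retinoic acid, was the only member called in each of the 3 *KEAP1* KO clones. It lay at 0.168, 0.408 and 0.216 CPM in LL2 WT. It lay at 3.96, 2.81 and 2.48 CPM in *KEAP1* KO #1, at 2.64, 2.68 and 2.39 in #2, and at 2.52, 2.84 and 3.05 in #3. The lowest *KEAP1* KO sample was far above the highest LL2 WT sample, and the clones overlapped each other. The mean was 11.7-fold higher in #1, 9.74-fold higher in #2 and 10.6-fold higher in #3. The log2 fold changes were 3.16, 2.93 and 3.05, each with a standard error of 0.37. All of them stayed called in each alternative setting. In *NRF2* KO the samples lay at 0.300, 1.04 and 0.349 CPM and overlapped LL2 WT (log2 fold change 0.75 ± 0.37, not called). Without replicate 2 of *NRF2* KO that value was 0.27. In these bulk samples, more cells with the transcript and more transcript per cell cannot be told apart, and likewise fewer cells and less transcript where a gene is lower.

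*Cyp26b1* (ENSMUSG00000063415.12) lies on the minus strand of mouse chromosome 6 (GRCm38), from 84571414 to 84593908. Its promoter is printed because this member differed most between LL2 WT and the *KEAP1* KO clones. The sequence runs from 250 bases before to 50 bases after the start site in RefSeq (GRCm38.p6), chr6:84593761-84594060, on the minus strand and 5′ to 3′.
Cyp26b1 promoter: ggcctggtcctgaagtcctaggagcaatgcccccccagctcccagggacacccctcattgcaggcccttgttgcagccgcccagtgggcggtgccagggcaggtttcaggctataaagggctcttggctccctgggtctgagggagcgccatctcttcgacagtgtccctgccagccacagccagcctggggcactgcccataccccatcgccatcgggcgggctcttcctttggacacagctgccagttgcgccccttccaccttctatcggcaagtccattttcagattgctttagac
The promoters were searched on both strands for the direct repeats of receptor half-sites to which retinoic acid receptors bind, with 5 bases (DR5) or 2 bases (DR2) between the half-sites, and for the core letters of the antioxidant response element that NRF2 binds (TGACNNNGC). These letters are in 0.0974%, 0.268% and 12.4% of the 32851 RefSeq promoter windows, in this order, and an antioxidant core can overlap a half-site. None of them is in this *Cyp26b1* window, which says only that the letters are absent from these 300 bases. RefSeq windows were matched for 7 of the 9 members, 16 windows in all, and not for *Crabp2* and *Rdh10*.

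*Rarb*, the receptor gene known as a direct retinoic acid target, was low in LL2 WT and lower in all 4 knockout lines. It lay at 0.521, 0.235 and 1.05 CPM in LL2 WT. It lay at 0.146, 0 and 0.119 CPM in *KEAP1* KO #1, at 0 in all samples of #2 and #3, and at 0.130, 0.0897 and 0.224 in *NRF2* KO. All samples of each knockout line were below the lowest LL2 WT sample, in *NRF2* KO only just (0.224 against 0.235 CPM). The mean was at least 6.01-fold lower in #2 and #3, 6.80-fold lower in #1 and 4.06-fold lower in *NRF2* KO. *Rarb* did not pass the filter on low values and has no entry in the main test, and a value of 0 in this table can be a failed estimate. On 35.7% of its 31-base words *Rarb* shares sequence with other genes. Its exons overlap *Top2b* on the opposite strand by 1793 bases, 34.1% of its exonic bases, and *Top2b* lay at 46.5 to 76.8 CPM in all samples. Whether the pseudo-alignment used strand is not given in the sources used here, so *Rarb* levels are uncertain.

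The *Rarb* promoter is printed because it holds the sole DR5 match among the 16 windows of the members. *Rarb* (ENSMUSG00000017491.9) spans 16430839 to 16819156 on the minus strand of chromosome 14. The window, chr14:16575427-16575726 on the minus strand, lies inside that span at the start of a shorter transcript. Capitals mark the DR5 match, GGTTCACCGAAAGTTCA, whose first base is at −53 from the start site.
Rarb promoter: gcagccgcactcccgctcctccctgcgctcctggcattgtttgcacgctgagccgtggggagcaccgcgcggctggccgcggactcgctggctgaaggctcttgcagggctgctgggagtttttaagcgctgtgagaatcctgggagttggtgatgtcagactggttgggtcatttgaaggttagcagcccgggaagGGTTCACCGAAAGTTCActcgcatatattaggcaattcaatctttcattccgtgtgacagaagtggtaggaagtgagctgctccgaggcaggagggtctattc
A match is a description of letters and not a measured binding site. DR5 matches occur in 32 of the 32851 windows. The antioxidant core was matched in 1 member window, the third of 4 for *Rara* (TGACTGTGC on the minus strand, 7 bases after the start site), and no DR2 match was found.

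*Rara* (chromosome 11, 98927818 to 98974942) and *Rarg* (chromosome 15, 102234938 to 102257517), the other receptor genes, were the steadiest of the group. *Rarg* lay at 44.7, 38.0 and 59.0 CPM in LL2 WT, at 42.7, 41.8 and 51.0 in *KEAP1* KO #1, at 40.0, 38.8 and 61.4 in #2, at 39.9, 48.2 and 60.2 in #3, and at 41.4, 38.4 and 50.8 in *NRF2* KO. All lines overlapped, and the replicates of a line differed more than the lines did. The log2 fold changes of *Rarg* ran from −0.10 to 0.07 with a standard error of 0.21, and none was called. The sign in #3, 0.07, became −0.01 with quantile normalization. *Rara* averaged 16.4 ± 1.85 CPM in LL2 WT, 16.1 ± 1.18 in *KEAP1* KO #1, 14.5 ± 2.07 in #2, 12.7 ± 1.35 in #3 and 18.7 ± 2.74 in *NRF2* KO. Its samples in #3 (11.6, 12.4 and 14.2 CPM) were all below those in LL2 WT (15.2, 15.5 and 18.5 CPM), with a log2 fold change of −0.36 ± 0.14 that was not called. Neighbours in the order of the 5 *Rara* levels overlapped. The ratio of mean *Rarg* to mean *Rara* CPM was 2.89 in LL2 WT, 2.80, 3.23 and 3.88 in *KEAP1* KO #1, #2 and #3, and 2.33 in *NRF2* KO.

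*Rdh10*, which oxidises retinol to retinal and is the main such enzyme of the embryo, was the member with the clearest order of lines. It lay at 42.4, 49.3 and 50.3 CPM in LL2 WT and at 42.0, 39.5 and 36.8 in *NRF2* KO. It lay at 27.7, 32.4 and 26.0 CPM in *KEAP1* KO #1, at 15.7, 16.4 and 10.5 in #2, and at 18.5, 17.8 and 13.0 in #3. The ranges of LL2 WT, *NRF2* KO, #1 and #3 followed each other without overlap, whereas #3 and #2 overlapped. The mean was 1.65-fold lower in #1, 3.33-fold lower in #2 and 2.88-fold lower in #3. In *NRF2* KO it was 39.4 ± 2.64 CPM, against 47.3 ± 4.26 in LL2 WT. The log2 fold changes of −1.75 ± 0.18 in #2 and −1.53 ± 0.18 in #3 were called in each alternative setting. Those of −0.72 in #1 and −0.26 in *NRF2* KO were not called. *KEAP1* KO #1 exceeded #2 by 1.03 on the log2 scale, which was called, and the difference dropped below 1 without *KEAP1* KO #1 replicate 2 (0.94), without *KEAP1* KO #2 replicate 3 (0.83) and with CPM rescaled by the median ratio (0.94). *Rdh10* lies on chromosome 1 from 16105774 to 16133734 (plus strand).

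*Dhrs3* (chromosome 4, 144892827 to 144928209), which turns retinal back into retinol, varied with the replicate number as much as with the line. It lay at 5.33, 2.29 and 13.7 CPM in LL2 WT and at 2.08, 0.548 and 4.34 in *NRF2* KO, in the order of replicates 1, 2 and 3. In the same order it lay at 1.61, 1.48 and 3.39 CPM in *KEAP1* KO #1, at 0.346, 0.763 and 2.84 in #2, and at 1.02, 0.726 and 2.61 in #3. Each knockout line overlapped LL2 WT, although at each replicate number the LL2 WT sample was the highest of the 5 lines. The replicate numbers were not taken as pairs. Replicate 3 held the highest *Dhrs3* value in all 5 lines, at 2.19 to 5.13 times the mean of replicates 1 and 2. The mean was 3.28-, 5.39- and 4.89-fold lower in #1, #2 and #3 and 3.05-fold lower in *NRF2* KO than in LL2 WT. On the log2 scale these were −1.41, −2.43, −2.05 and −1.61 with a standard error of 0.84, and the change in #2 was called. That call was lost without LL2 WT replicate 1 (−2.46) or 3 (−1.79) and without *KEAP1* KO #2 replicate 1 (−1.82) or 2 (−2.30). It was also lost, at the same value of −2.43, with no filter on low values and with only the lines compared in the fit. In #3 a call appeared without LL2 WT replicate 2 (−2.67). With all replicate 3 samples left out, a choice made after these values were seen, the value in #3 was −1.90 and was called.

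**Figure D2:**
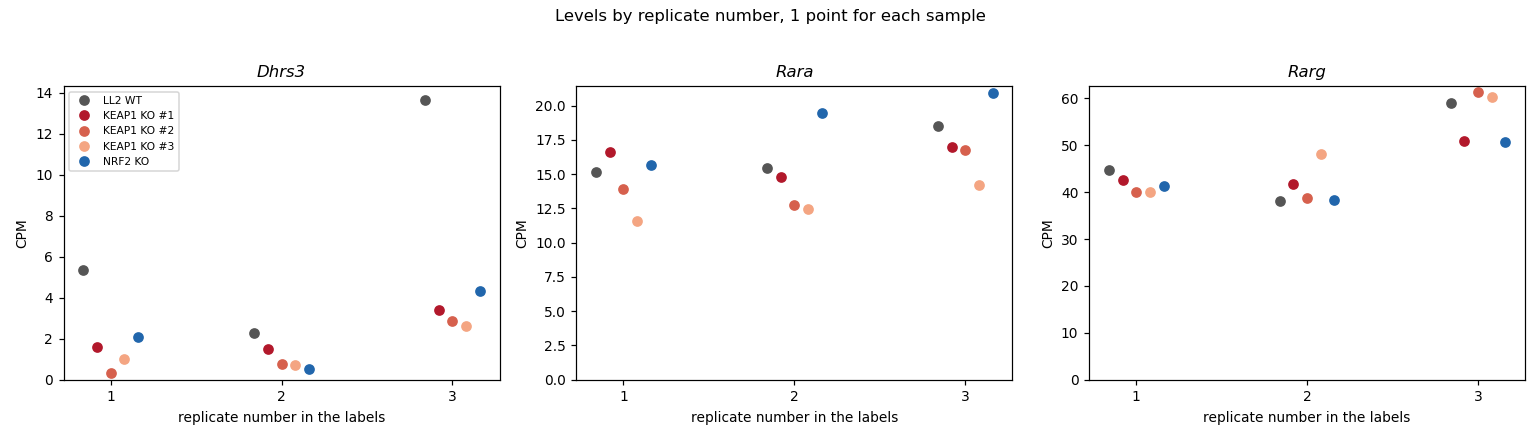
CPM of *Dhrs3*, *Rara* and *Rarg* against the replicate number in the labels, 1 point for each of the 15 samples, colored by line, on linear axes from 0. Replicate 3 is the highest sample of its line in all 5 lines for each of these genes, with a widest step for *Dhrs3* (2.19 to 5.13 times the mean of the other samples of the line).

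*Rara* and *Rarg* shared the pattern with *Dhrs3*: replicate 3 was the highest of its line in all 5 lines, at 1.08 to 1.26 times the mean of the other samples for *Rara* and 1.21 to 1.56 times for *Rarg*. Of all 14652 genes tested, 20.5% had replicate 3 highest in all 5 lines. *Stra6* had it in 4 lines, *Rarb* in 2, and *Crabp1*, *Crabp2*, *Rdh10* and *Cyp26b1* in 1 each. With the replicate number as a block in the fit, *Dhrs3* was called in *KEAP1* KO #1 (−1.41) and #3 (−2.05) as well as in #2, and no other member changed its call.

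*Stra6*, the retinol transporter, stood apart in *KEAP1* KO #3 and *NRF2* KO. It lay at 0.833, 0.329 and 1.04 CPM in LL2 WT, at 0.244, 0.551 and 0.907 in *KEAP1* KO #1, and at 0.246, 0.283 and 0.305 in #2. It lay at 0, 0 and 0.0238 CPM in #3 and at 0.0650, 0.0253 and 0.0289 in *NRF2* KO, under the floor in all 6 samples. *KEAP1* KO #1 overlapped LL2 WT, and #2 lay just below its lowest sample. The mean was at least 7.35-fold lower in #3 and in *NRF2* KO than in LL2 WT. The log2 fold changes of −2.84 ± 0.45 in #3 and −2.47 ± 0.45 in *NRF2* KO were called. The call in #3 was lost with a pseudocount of 1 CPM (−0.76). In *NRF2* KO a pseudocount of 1 CPM also ended the call (−0.72), as did leaving out LL2 WT replicate 1 (−2.34) or 3 (−2.19) or any of the *NRF2* KO replicates (−2.60, −2.40 and −2.42). In #2 the value of −1.03 ± 0.45 was not called, and without LL2 WT replicate 2 it was −1.45 and called. *KEAP1* KO #1 exceeded #3 by 2.50 ± 0.45 on the log2 scale, a called difference between clones with the same targeted gene. *Stra6* lies on chromosome 9 from 58063788 to 58153996 (plus strand).

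*Crabp1* and *Crabp2*, the cytosolic binding proteins of retinoic acid, were near the floor. *Crabp1* lay at 0.271, 0.105 and 0.422 CPM in LL2 WT, at 0 in all *KEAP1* KO #1 samples, at 0, 0.0567 and 0 in #2, at 0, 0.0571 and 0 in #3, and at 0.147, 0 and 0.0633 in *NRF2* KO. Its mean was at least 2.66-fold lower in each *KEAP1* KO clone, and *NRF2* KO overlapped LL2 WT. *Crabp1* (chromosome 9, 54764748 to 54773110) did not pass the filter on low values. *Crabp2* (chromosome 3, 87948666 to 87953376) lay at 0.267, 0.257 and 0.196 CPM in LL2 WT, at 0.276, 0.548 and 0.979 in *KEAP1* KO #1, at 0.182, 0.414 and 0.237 in #2, at 0.189, 0.186 and 0.128 in #3, and at 0.436, 0.481 and 0.413 in *NRF2* KO. All samples of #1 and of *NRF2* KO were above LL2 WT and all samples of #3 below it, and none of these differences was called. The log2 fold changes of *Crabp2* were 0.92, 0.11, −0.35 and 0.68 in #1, #2, #3 and *NRF2* KO, with a standard error of 0.38. Without *KEAP1* KO #1 replicate 1 the value in #1 was 1.31 and called. *KEAP1* KO #1 exceeded #3 by 1.27 ± 0.38, which was called, and this call was lost without *KEAP1* KO #1 replicate 2 (1.26) or 3 (0.89) and without any of the *KEAP1* KO #3 replicates (1.33, 1.32 and 1.16).

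**Figure D3:**
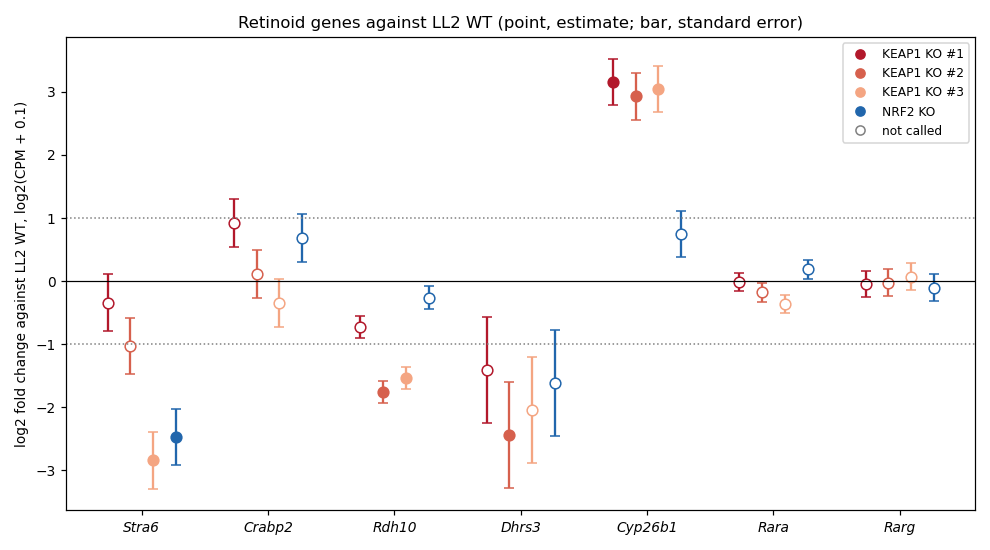
Log2 fold change against LL2 WT (log2 of CPM + 0.1, bars are standard errors) of the 7 retinoid genes that passed the filter, for the 4 knockout lines; filled points are called and dotted lines mark a change of 1. *Cyp26b1* stands near 3 in the *KEAP1* KO clones (2.93 to 3.16), *Rdh10*, *Dhrs3* and *Stra6* lie below 0 in all 4 lines, and *Rara* and *Rarg* stay within −0.36 and 0.19.

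Of the 9 members, 7 passed the filter and could be called. In *KEAP1* KO #1, 1 was called (*Cyp26b1* higher), where 8.54% of all 14652 genes tested were, 4.55% higher and 3.99% lower. In #2, 3 were called (*Cyp26b1* higher, *Rdh10* and *Dhrs3* lower), with 13.7% of all genes, 5.94% higher and 7.75% lower. In #3, 3 were called (*Cyp26b1* higher, *Rdh10* and *Stra6* lower), with 13.4% of all genes, 6.09% higher and 7.34% lower. In *NRF2* KO, 1 was called (*Stra6* lower), with 0.464% of all genes, 0.0887% higher and 0.375% lower. Between clones, 1 member was called for #1 against #2 (4.58% of all genes), 2 for #1 against #3 (4.63%) and 0 for #3 against #2 (0.485%). Nothing is read from these counts, because the members were chosen with these comparisons known. With no filter on low values, *Crabp1* and *Rarb* entered the fit and were called lower in all 3 *KEAP1* KO clones, which gave 3, 4 and 5 members called in #1, #2 and #3, *Dhrs3* being lost in #2. The shares above do not apply to that fit, which held 25645 genes. Of these, 727 were called higher and 578 lower in #1, 927 and 1085 in #2, and 952 and 1085 in #3. *Rarb* levels are uncertain, as described above. In *KEAP1* KO #1, 2 of the 9 members lay wholly above LL2 WT and 3 wholly below it (24.6% and 12.4% of all genes tested). In #2 these were 1 and 4 members (23.4% and 18.6%), in #3 1 and 6 (22% and 18%), and in *NRF2* KO 1 and 3 (8.68% and 4.53%). All 9 *KEAP1* KO samples lay above LL2 WT for *Cyp26b1* and below it for *Rdh10*, *Crabp1* and *Rarb*, against 12.9% of all genes above and 7.69% below. These shares cover only genes that passed the filter, whereas the member counts include *Crabp1* and *Rarb*, which did not. Of the members that passed, those wholly below LL2 WT were *Rdh10* in #1 and *Stra6* and *Rdh10* in #2 and in *NRF2* KO. In #3 they were *Stra6*, *Crabp2*, *Rdh10* and *Rara*. The 4 comparisons with LL2 WT share its 3 samples. In #1 the median of all genes was 0.11 on the log2 scale, and median ratio rescaling took it to 0.010 and the genes called higher and lower from 667 and 584 to 553 and 724. Under that rescaling no member changed the sign of its difference from LL2 WT.

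The rest of the pathway was read from a list of 71 other retinoid genes, of which 50 passed the filter. Of these 50 genes, 6 rose and 4 fell in *KEAP1* KO #1 (20.0%), 8 rose and 4 fell in #2 (24.0%), and 7 rose and 4 fell in #3 (22.0%), against the 8.54%, 13.7% and 13.4% of all genes given above. The list, like the members, was chosen with earlier results of these data known. Nothing is therefore read from these shares, and the adjusted p-values given below for its genes are a description. In *NRF2* KO limma called 0 of the 50, where 0.464% of all genes were called. An unadjusted limma p under 0.05 was found for 4 of the 50 in *NRF2* KO and for 23, 25 and 23 in *KEAP1* KO #1, #2 and #3. The share of all genes with such a p is not given here, so nothing is read from these counts either. The 50 genes had a median change of 0.09, 0.09 and −0.03 on the log2 scale in the clones and −0.03 in *NRF2* KO, against 0.11, 0.03, 0.02 and 0.04 for all genes. By role, 6 of 13 genes of uptake, binding and storage, 16 of 22 retinol dehydrogenases and reductases, 4 of 5 retinal dehydrogenases, 1 of 2 hydroxylases, 11 of 12 receptor partners and 12 of 17 responsive genes were tested.

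*Adh7*, *Aldh1a1* and *Aldh1a3*, which code for enzymes that make retinal or retinoic acid, were called higher in all 3 clones. *Adh7*, an alcohol dehydrogenase that oxidises retinol, averaged 5.34 ± 1.44 CPM in LL2 WT and 44.8 ± 2.14, 33.2 ± 2.42 and 52.6 ± 6.11 in *KEAP1* KO #1, #2 and #3. It rose 8.38-, 6.22- and 9.85-fold (limma adjusted p = 1.90e-07, 3.69e-07 and 4.38e-08), with all 9 samples above LL2 WT. Of the 4 retinal dehydrogenases tested, 3 were called higher in #1 and 2 in each of #2 and #3. *Aldh1a1* was under the floor in LL2 WT and rose at least 8.04-, 2.59- and 4.46-fold to 0.804, 0.259 and 0.446 CPM (limma adjusted p = 0.000223, 0.0118 and 0.00115). At these low levels the *Aldh1a1* change was under 1 on the log2 scale in all 3 clones with a pseudocount of 1 CPM (0.78, 0.27 and 0.47) and in #2 and #3 with 0.5 CPM (0.48 and 0.80), and in #2 it was not called with no replicate 3 in any line (1.18, limma adjusted p = 0.0723). *Aldh1a3* rose from 1.11 ± 0.539 CPM to 2.49, 2.73 and 2.41 (limma adjusted p = 0.0327, 0.0152 and 0.0344), and without LL2 WT replicate 3 it was not called in any clone (log2 fold changes 0.79, 0.92 and 0.72). Its calls were also lost without *KEAP1* KO #1 replicate 2 or 3, #2 replicate 1 and #3 replicate 1 or 2, in the clone concerned (log2 fold changes of 0.88 to 1.25), and in #1 with median ratio rescaling (1.09). *Aldh1a7* rose at least 6.44-fold in #1 (0.644 CPM, limma adjusted p = 0.00405), a call lost with a pseudocount of 1 CPM (0.68). In #2 and #3 *Aldh1a7* was at 0.191 and 0.283 CPM, with log2 fold changes of 1.22 and 1.48 that were not called. Of its 31-base words, 13.8% are also in *Aldh1a1*, so reads may be split between them. *Aldh8a1* was not called in any line, and *Aldh1a2* was listed at 0 in all samples.

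Enzymes that work between retinol and retinal changed in both directions. *Dhrs9*, a retinol dehydrogenase, fell from 31.5 ± 7.20 CPM to 6.48, 14.6 and 13.9 in *KEAP1* KO #1, #2 and #3 (limma adjusted p = 0.000145, 0.0107 and 0.00836), and in #2 the change was just under 1 on the log2 scale without LL2 WT replicate 3 (−0.98) or *KEAP1* KO #2 replicate 1 or 2. *Rdh14* fell in #3 (−1.05, limma adjusted p = 0.00907), and this was lost without LL2 WT replicate 3 (−0.80) or *KEAP1* KO #3 replicate 1 (−0.94) or 2 (−0.94). The aldo-keto reductase genes *Akr1b3* (2.08 in #2 and 1.49 in #3, limma adjusted p = 0.00162 and 0.0119) and *Akr1b8* (1.02 in #2, limma adjusted p = 3.58e-05) rose. *Akr1b3* in #3 was lost without #3 replicate 2 (1.33), and *Akr1b8* without LL2 WT replicate 1 (0.98) or #2 replicate 1 (0.96) or 2 (0.96). *Akr1b10*, the other aldo-keto reductase gene tested, was lower in #2 and #3 (−0.75 and −0.69, limma adjusted p = 0.0189 and 0.0282). These changes were under 1 on the log2 scale and so not called. *Akr1b3* shares 15.2% of its 31-base words with other genes. *Akr1b8* shares 9.48%, with 6.41% in *Akr1b10*. The retinoic acid hydroxylase genes *Cyp26a1* and *Cyp26c1* did not share the *Cyp26b1* values: *Cyp26a1* averaged at most 0.203 CPM in any line and was not tested, and *Cyp26c1* averaged 0.421 CPM in LL2 WT and 0.605, 0.847 and 0.419 in the clones, with no call.

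Binding proteins, receptor partners and responsive genes were mixed as well. *Rbp2*, a cellular retinol binding protein of the gut, rose from 0.146 ± 0.115 CPM to 1.21 ± 1.15, 1.95 ± 0.895 and 4.94 ± 1.16 (limma adjusted p = 0.0146, 0.00121 and 6.96e-05), and the call in #1 was lost without its replicate 3 (log2 fold change 1.48). *Rbp4*, which carries retinol in blood, fell from 68.0 ± 12.5 to 24.4 ± 3.98 CPM in #1 (limma adjusted p = 5.45e-05). In #2 and #3 it was at 42.7 and 49.1 CPM, a change of less than 1 on the log2 scale. *Rbp4* was at 44.7 CPM in *NRF2* KO, with all samples below LL2 WT (log2 fold change −0.60, not called). Of the RXR partners, *Rxra* averaged 18.4 CPM in LL2 WT and 28.3 in #1, a change under 1 on the log2 scale (0.62), *Rxrb* was not called and *Rxrg* was at 0.0298 CPM or less. *Ppard*, a nuclear receptor that also partners with RXR, rose from 23.4 ± 5.68 CPM to 48.0, 77.1 and 78.1 (limma adjusted p = 0.00284, 4.47e-05 and 3.82e-05), and in #1 it was below 1 on the log2 scale with median ratio rescaling (0.96) and without LL2 WT replicate 2 (0.85). *Nr2f2*, an orphan nuclear receptor, fell from 70.8 ± 4.24 CPM to 29.0 and 26.8 in #2 and #3 (limma adjusted p = 2.11e-07 and 8.59e-08). In #1 it was at 39.5 CPM (limma adjusted p = 1.84e-05), a change of less than 1 on the log2 scale (−0.84). *Nr2f1* fell in #2 (−1.13, limma adjusted p = 0.00996), less without LL2 WT replicate 3 (−0.93) or #2 replicate 2 (−0.97). Of the 12 retinoic acid responsive genes tested, *Hoxb5* fell in all 3 clones, from 1.34 ± 0.556 CPM to 0.110, 0.147 and 0.0663 (limma adjusted p = 0.00170, 0.00161 and 0.000334), and *Hoxb4* fell in #1 (−1.82, limma adjusted p = 0.000251). *Gprc5a* rose in #2 from 17.8 to 37.7 CPM (limma adjusted p = 0.000385), by less than 1 on the log2 scale without LL2 WT replicate 2 (0.94). In #3 *Gprc5a* was at 35.0 CPM (limma adjusted p = 0.000834), with a log2 fold change of 0.99 and so not called. *Tgm2* rose in #3 (1.38, limma adjusted p = 0.0259). The *Tgm2* call was lost without LL2 WT replicate 1 or 2 or #3 replicate 1 or 3 (1.16 to 1.42), and 20.0% of its 31-base words are in other genes.

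**Figure D4:**
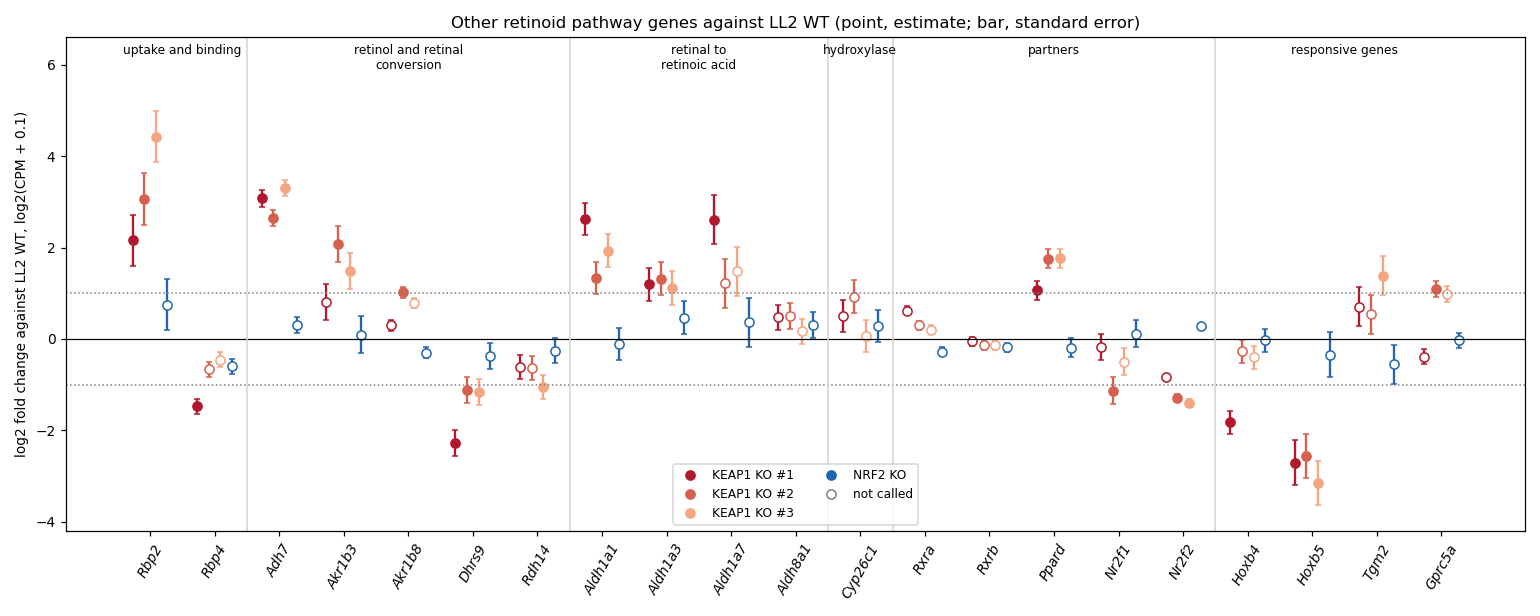
Log2 fold change against LL2 WT (log2 of CPM + 0.1, bars are standard errors) of 21 other retinoid pathway genes in the 4 knockout lines, grouped by role; filled points are called and dotted lines mark a change of 1. *Rbp2*, *Adh7*, *Aldh1a1*, *Aldh1a3*, *Aldh1a7* and *Ppard* are above 1 and *Dhrs9* and *Hoxb5* below −1 in all 3 *KEAP1* KO clones. *Aldh1a7* is filled only in #1, and no *NRF2* KO point is filled.

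The genes whose levels ran most like those of a member were found by Pearson's r of log2(CPM + 0.1) over the 15 samples, among 11671 genes that averaged 1 CPM or more. The samples share lines and libraries, so r is a description. *Cyp26b1* ran most like *Trim54* (r = 0.979), which averaged 1.94 CPM in LL2 WT, 53.1, 49.7 and 57.6 in *KEAP1* KO #1, #2 and #3 and 2.89 in *NRF2* KO, and next like the potassium channel gene *Kcnn4* (0.971). *Rdh10* ran most like the signal peptidase gene *Spcs2* (0.965) and the forkhead gene *Foxf1* (0.960). *Foxf1* averaged 16.4 CPM in LL2 WT and 9.24, 3.23 and 4.11 in *KEAP1* KO #1, #2 and #3. *Dhrs3* ran most like *Hyi* (0.978) and the Polycomb gene *Cbx7* (0.957), *Rara* like *Atp11a* (0.941) and *Sav1* (0.935), and *Rarg* like *Auh* (0.946) and *Ccdc28a* (0.940).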

How the data were processed

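Libraries were made from LL2 cell RNA with a poly(A) kit and sequenced as paired ends. The authors pseudo-aligned the reads with kallisto, summed transcripts to genes and deposited CPM, that is, counts scaled within each sample to a common total. Their methods give GRCm38.p6 transcripts, whereas the submitters' processing notes list GRCm39 and bcl2fastq 1.9.0, so coordinates here come from GENCODE and RefSeq tables of GRCm38 and not from the data. The CPM are fractional and give no read counts, so the depth per sample is unknown and no counting interval was computed. The sums were 998941 to 999306 CPM per sample, and 1 entry with no symbol (0.0214% to 0.0491% of a sample) was left out.

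Genes whose CPM summed to 3 or more across all samples (14652) were fitted as log2(CPM + 0.1) with limma 3.58.1 in R 4.3.3, using 1 mean per line for 15 samples, a trended empirical Bayes step and Benjamini-Hochberg adjustment over the genes tested.  The members and the lists, of which the 71 other pathway genes are 1, were chosen with earlier results of these data known. Named from that list were all retinal dehydrogenases, retinoic acid hydroxylases and *Rxr* genes. Any other gene called in a line was named if it averaged at least 1 CPM in some line. *Akr1b10*, which was not called, was added as the other aldo-keto reductase gene tested. For each member that averaged 1 CPM or more, the 2 most correlated genes were named. Alternatives were median ratio rescaling, quantile normalization, pseudocounts of 1, 0.5 and 0.02 CPM, no filter, a filter on a mean of at least 1 CPM, only the lines compared, a replicate block, each replicate left out, and, added after the data were seen, all replicate 3 samples left out. Python 3.11.15 with pandas 2.3.3, numpy 2.4.6 and matplotlib 3.10.9 was used.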

Additional observations from a re-analysis of the deposited data

Results flagged for a closer look

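The members differed between *KEAP1* KO clones that carry an edit of the same gene in 3 called comparisons, each fitted as the difference between the clones. The members were chosen with these comparisons known, so the calls are a description. None of the calls held in every alternative setting. *Stra6* was higher in *KEAP1* KO #1 than in #3 by 2.50 on the log2 scale, with all samples of #3 under the floor of 0.1 CPM. With a pseudocount of 1 CPM that difference was 0.62 and not called. *Crabp2* was higher in #1 than in #3 by 1.27, at levels under 1 CPM. That call was lost with median ratio rescaling, quantile normalization, no filter, only the lines compared and without any of the #3 replicates, among other settings. *Rdh10* was higher in #1 than in #2 by 1.03, at 26.0 to 32.4 CPM against 10.5 to 16.4 CPM. It dropped below 1 with median ratio rescaling (0.94) and quantile normalization (0.95), among other settings. In these clones *Keap1* averaged 11.8 CPM in #1 and 5.53 and 5.58 CPM in #2 and #3, and the part of this difference in the *Stra6*, *Crabp2* and *Rdh10* values was not tested.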

How the results depend on the processing

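No called value turned its sign in any alternative. Leaving out 1 sample turned the sign of uncalled differences from LL2 WT for *Rarg* in all 4 lines, *Rara* in *KEAP1* KO #1, *Stra6* in #1 (0.07) and *Crabp2* in #2 (−0.13). Most changes concern counts of 1 to 3 members. For *KEAP1* KO #1 against #2 the 1 member called became 0 with median ratio rescaling, quantile normalization, a pseudocount of 1 CPM and no replicate 3. For #1 against #3 the 2 members became 1 with median ratio rescaling, quantile normalization, a pseudocount of 0.5 CPM, no filter, only the lines compared and no replicate 3, and 0 with a pseudocount of 1 CPM or a mean of at least 1 CPM. For #3 against #2 the count was 1 (*Stra6*) with quantile normalization and a pseudocount of 0.02 CPM. Against LL2 WT, no filter gave 3 members in #1 and 5 in #3, and the calls over all genes in that fit are given above. The 1 member in *NRF2* KO (*Stra6*) became 0 with pseudocounts of 1 and 0.5 CPM, a mean of at least 1 CPM, only the lines compared and no replicate 3. Of the other pathway genes, 6 were called in #1 with a pseudocount of 1 CPM and 7 in #3 with only the lines compared, against 10 and 11. A higher pseudocount shrinks changes of low genes and a filter on the mean removes them, and other causes were not tested. Leaving out 1 sample gave 0 to 1 members for #1 against #2, 1 to 2 for #1 against #3, 1 to 2 in #1, 2 to 4 in #2, 3 to 4 in #3 and 0 to 1 in *NRF2* KO, and 8 to 10, 9 to 13 and 8 to 12 other pathway genes in the clones.

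The replicate numbers were not taken as pairs, because not every same-number correlation was above 0.1. Over 11676 genes, the deviations of LL2 WT samples from their line mean correlated with those of the same number in a knockout line at −0.019 to 0.086 for replicate 1, 0.267 to 0.529 for replicate 2 and 0.437 to 0.631 for replicate 3, and the median between different numbers was −0.075 to −0.201, so replicates 2 and 3 deviated together across lines. With a replicate block, 2 members were called in *KEAP1* KO #1 (*Dhrs3* added) and 4 in #3 (*Dhrs3* added). Only the pairs #2 with #3 and #3 with *NRF2* KO had all same-number correlations above 0.1. At levels near 0.1 CPM (*Stra6*, *Crabp1*, *Crabp2* and *Rarb*) a few reads decide a value, and with the depth unknown no interval can be given.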
